A study of Mus musculus with 2 samples.

Results

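The Notch genes described here are 10 members of the Notch pathway, which were chosen by name: the receptors Notch1, Notch2 and Notch3, the ligands Dll1, Dll3, Jag1 and Jag2, and the transcription factors Hes1, Hes6 and Hey1. All probe sets annotated to exactly 1 of these symbols were taken, which gave 17 probe sets for the 10 genes, of 45037 probe sets and 18193 genes in all. They were measured in Neuro2a cells, a mouse neuroblastoma line, on Affymetrix Mouse Genome 430 2.0 arrays. One culture received a non-specific control siRNA and the other an siRNA against Tmem132a (mKIAA1583), a gene of a family of single-pass membrane proteins, and each gave 1 array. The free-text description of the second sample repeats that of the control, but both its title and its treatment field give the Tmem132a siRNA. The siRNA dose, the number of siRNA sequences and the time after transfection are not given in the sources used here.

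Notch receptors are single-pass membrane proteins that bind Delta-like and Jagged ligands on neighbouring cells. Binding allows ADAM proteases and then gamma-secretase to cut the receptor, and the freed intracellular part joins the DNA-binding protein RBPJ and Mastermind coactivators in the nucleus, where genes such as Hes1 and Hey1 are switched on. Hes and Hey proteins repress proneural genes and so hold back neuronal differentiation, whereas Hes6 counteracts Hes1 and is linked to neuronal differentiation.

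Values are MAS5 signals, a linear intensity in arbitrary units that summarises the probes of a probe set. Ratios are log2 ratios, Tmem132a siRNA over control, so that -1 is a 2-fold lower signal and 1 a 2-fold higher one. With 1 array per group there is no replicate error and no test, and differences are described by size only. A probe set entered a gene value when its mean signal over both arrays reached the median of all probe sets (77.25), and 10 of the 17 member probe sets did. For ratios, a floor of 14.5 replaced any signal below it, as in the dimmest probe sets of Notch3 and Jag1. The probe sets of different genes differ in how strongly they bind, so signals are compared between arrays and not between genes. As a measure of how far ratios scattered on these arrays, each probe set is set beside the central 95% of ratios in its signal range, one of 40 ranges with about 1126 probe sets each.

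The targeted gene and the cell type were checked first. Tmem132a read 1825.5 on the control array and 435.6 on the array of its own siRNA, 23.9% of the control level. Of 16 markers of sympathetic neuroblasts, the lineage of this line, 15 were analysed here and 13 passed the filter, among them Phox2a (5143.9 and 4666.5 on the control and Tmem132a siRNA arrays) and Hand2 (15242 and 13190.2). The neurofilament genes Nefl and Nefm did not pass. Markers of fibroblasts, glia, endothelium and leukocytes mostly stayed below the filter: 1 of 10, 2 of 8, 1 of 10 and 2 of 9 passed.

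Of the 10 genes, 7 had a value and Dll1, Jag1 and Hes1 were too dim. Hes6 had 49.0% of the control signal on the Tmem132a siRNA array and was the one gene of the 7 past 2-fold. Over all 10678 genes with a value, 2.44% were at least 2-fold lower and 2.10% at least 2-fold higher. Jag2, Hey1 and Notch3 had lower signals by less than 1.5-fold, Notch1 had a higher signal by less than 1.5-fold, and Notch2 and Dll3 were nearly level. The median of the 7 gene ratios was -0.26, and that of all genes was 0.02. In their own signal ranges all 17 probe sets lay inside the central 95% of ratios, with Hes6 at the lower edge.

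**Figure D1:**
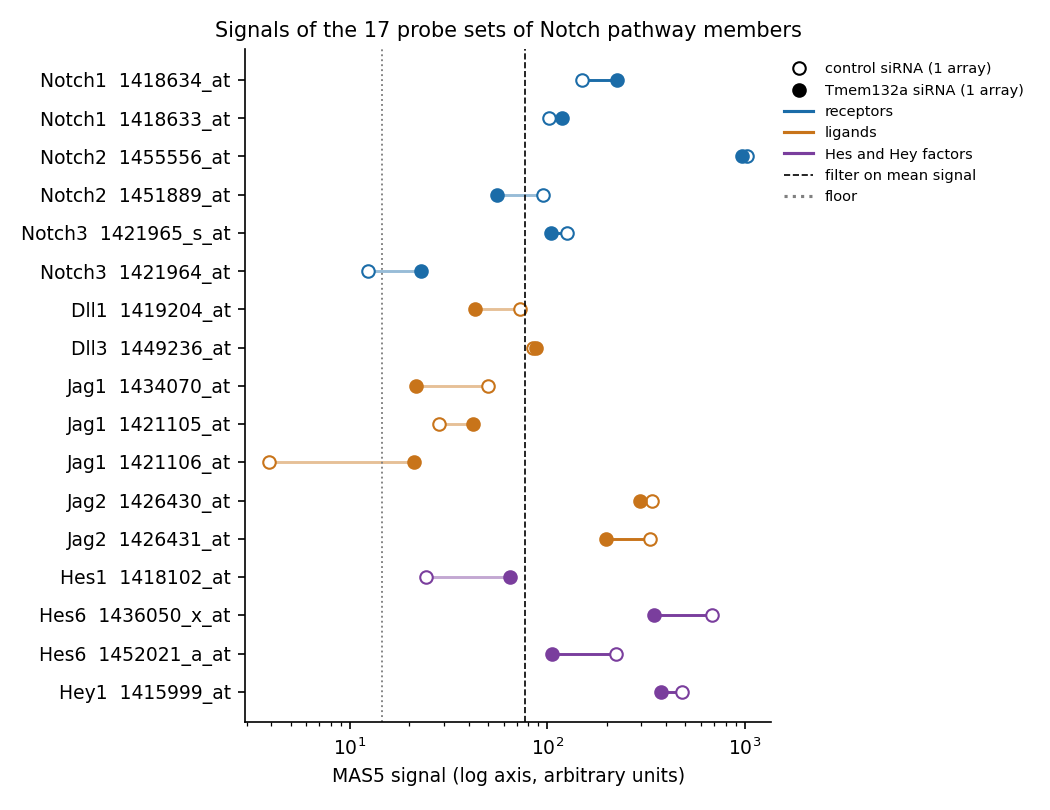
MAS5 signals (log axis, arbitrary units) of the 17 probe sets of the 10 Notch genes on the control siRNA array (open circles) and the Tmem132a siRNA array (filled circles), 1 array each. The line joins the arrays, is pale for probe sets below the filter, and is longest to the left of the dashed filter line for Jag1 and Hes1 and to its right for both Hes6 probe sets.

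Among the receptors, Notch1 was the only one with both probe sets higher on the Tmem132a siRNA array. Notch1, which in neural progenitors keeps cells undifferentiated, read 150.1 on the control array and 225.6 on the Tmem132a siRNA array for 1418634_at (log2 ratio 0.59). Its other probe set, 1418633_at, read 101.4 and 118.8 (0.23). Both were higher with the Tmem132a siRNA, and the gene ratio was 0.41, a 1.33-fold higher signal. The central 95% of ratios ran from -1.08 to 1.08 in the range of the former probe set and from -1.32 to 1.28 in that of the latter.

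Notch2, a receptor of the same family, was bright on 1455556_at, with 1027 on the control array and 973.3 on the other (log2 ratio -0.08). The signals of this probe set were nearly equal, and the central 95% of its signal range ran from -0.93 to 0.83. A dimmer Notch2 probe set, 1451889_at, read 95.6 and 55.4 and lay just below the filter at a mean of 75.5. With no filter its ratio of -0.79 entered the gene value, which was then -0.43. Notch3 had signals of 125.5 and 104.6 for 1421965_s_at (-0.26), whose suffix marks probes that may match transcripts of several genes. Its other probe set, 1421964_at, was dim, with 12.3 and 22.8, so that with no filter the Notch3 ratio was above 0, at 0.20.

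The ligands activate the receptors from the neighbouring cell, except Dll3, which acts mainly within the cell that makes it. Jag2 had lower signals on the Tmem132a siRNA array by both probe sets. On 1426431_at it read 332.7 on the control array and 198.4 on the other (log2 ratio -0.75), and on 1426430_at it read 337.7 and 296.1 (-0.19). The probe sets shared a direction, and their SD of 0.39 around the Jag2 mean was about that of probe sets around their gene mean over 5072 genes (0.39). The Jag2 gene ratio was -0.47, or 72.3% of the control level. Dll3 read 84.4 and 87.7 (0.06), and this ratio was below 0 after quantile normalization (-0.03) and after loess (-0.04).

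Dll1 and Jag1 were not measured well enough to give a value. Dll1, the main Delta ligand of neural progenitors, read 73.1 on the control array and 42.8 on the Tmem132a siRNA array on its single probe set, where the central 95% of ratios ran from -2.48 to 2.69. Jag1 had 3 dim probe sets that differed both ways. Its signals were 50.2 and 21.5 on 1434070_at, 28.3 and 41.8 on 1421105_at, and 3.9 and 21.2 on 1421106_at. The first of these was 2-fold lower (-1.22), as were 17.0% of the probe sets in its signal range. The signals of Dll1 and Jag1 give no direction for either ligand.

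**Figure D2:**
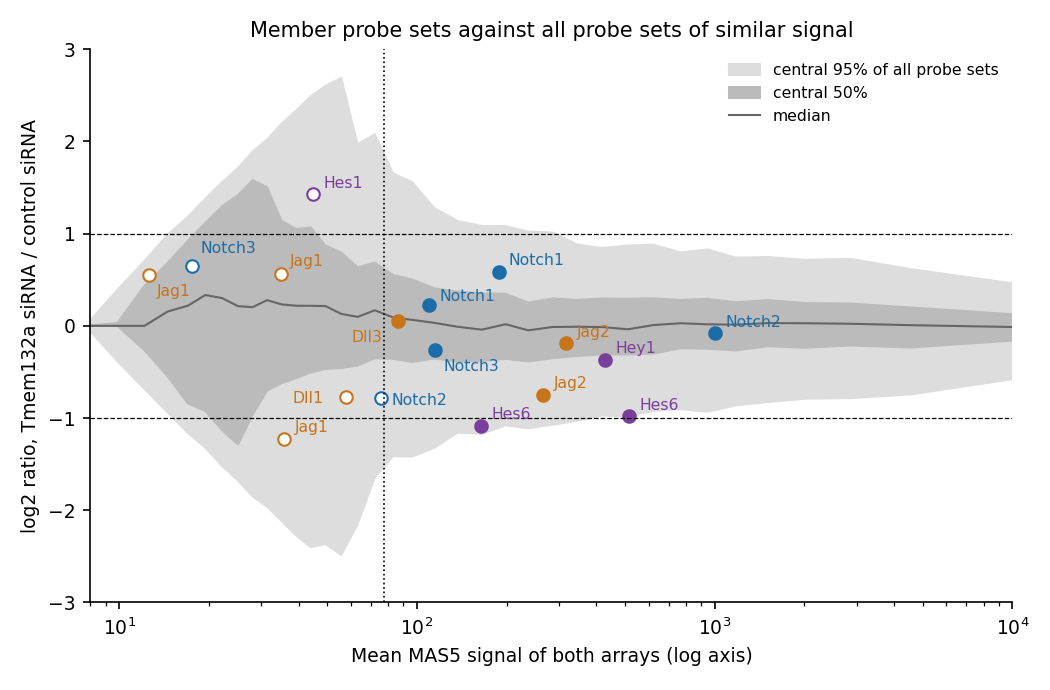
Log2 ratio against mean MAS5 signal (log axis) of the 17 member probe sets, filled where they passed the filter (dotted line), over bands that hold the central 95% and 50% of all 45037 probe sets in 40 signal ranges, with dashed lines at 2-fold. The band is widest for dim probe sets, where Hes1 and Jag1 lie, and the Hes6 probe sets lie at its lower edge.

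Hes6 had the lowest ratio of the 7 genes, and its probe sets gave nearly the same value. On 1436050_x_at the signal was 685 on the control array against 347.9 on the other, and on 1452021_a_at it was 222.6 and 105.2. Both probe sets read about the same share of the control level, 50.8% and 47.3%. Their log2 ratios were -0.98 and -1.08, and the gene ratio was -1.03. In the signal range of the latter, 4.53% of probe sets were at least 2-fold lower. The lower ends of the central 95% in their signal ranges were -0.98 and -1.17, so each lay at or just inside that edge. Both probe sets read the same RNA samples, so their closeness says nothing on variation between cultures or arrays. Of 5072 genes with several probe sets past the filter, 40 (0.789%) were at least 2-fold lower with every probe set at least 1.5-fold lower. That rule has the form of the Hes6 values, so the share is no support for them, and Hes6 is among the 40. Its ratio lay so close to 2-fold that it fell short of it by the brightest probe set (-0.98), at the 75th percentile filter (-0.98) and with a pseudocount (-0.78). Both Hes6 probe sets carry a suffix, x for probes that may also match other sequences and a for probes shared by transcripts of the same gene, and without such probe sets Hes6 had no value.

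Markers of sympathetic neuroblasts were lower beside Hes6: all 13 with a value were below 0 (48.2% of all genes were), with a median of -0.20 and a range from -0.51 (Isl1) to -0.03 (Chgb), and 0 of the 13 reached 1.5-fold. The summed signal of that marker list was 70224 on the control array and 58564 on the Tmem132a siRNA array. The summed signals of the other marker lists, which like the first include probe sets below the filter, were in the same order 3920.1 and 3244.8 for fibroblasts, 865.4 and 1228 for glia, 848.4 and 688.9 for endothelium, and 664 and 831 for leukocytes. Most of the glial rise was in Erbb3, a neuregulin receptor, which read 128.9 and 332.6 (log2 ratio 1.37), whereas the other glial marker with a value, Mbp, had a ratio of -0.18. Both leukocyte markers with a value had slightly lower signals, Csf1r at -0.10 and Cd74 at -0.05, so the higher leukocyte sum came from probe sets below the filter. The part of these markers in the Hes6 result was not tested. In bulk RNA, fewer cells of a type and less RNA per cell cannot be told apart.

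Hey1, a Notch-induced repressor, had signals of 483.6 and 375.3 on its 1 probe set (log2 ratio -0.37, 77.6% of the control level). This was lower on the Tmem132a siRNA array but well inside the central 95% of its signal range, -0.97 to 0.84. Hes1, the best known Notch target of this family, was dim on both arrays, with 24.2 and 65. Its ratio of 1.43 was 2-fold higher, as were 26.7% of the probe sets in its signal range, and the central 95% there ran from -2.40 to 2.49. On these arrays the direction of Hes1 could not be read.

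Hes6 can be switched on by proneural transcription factors, which bind E boxes, so the promoter windows of Hes6, the gene past 2-fold, are shown beside that of Notch1, whose probe sets were both higher. Windows are the 250 bases before a RefSeq gene start (GRCm38.p6), written 5′ to 3′ on the strand of the gene, and RefSeq lists 2 starts for Hes6. Capitals mark matches on either strand to the E box CANNTG or the N box CACNAG, a site of Hes repressors. The windows are chr1:91413223-91413472 (minus strand) and chr1:91414039-91414288 (minus strand) for Hes6 and chr2:26503823-26504072 (minus strand) for Notch1.
Hes6, chr1:91413223-91413472: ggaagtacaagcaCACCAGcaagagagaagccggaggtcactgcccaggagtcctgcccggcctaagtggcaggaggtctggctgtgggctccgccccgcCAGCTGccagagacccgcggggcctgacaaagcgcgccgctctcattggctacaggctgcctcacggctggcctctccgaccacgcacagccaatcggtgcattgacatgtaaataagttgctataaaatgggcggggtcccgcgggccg
Hes6, chr1:91414039-91414288: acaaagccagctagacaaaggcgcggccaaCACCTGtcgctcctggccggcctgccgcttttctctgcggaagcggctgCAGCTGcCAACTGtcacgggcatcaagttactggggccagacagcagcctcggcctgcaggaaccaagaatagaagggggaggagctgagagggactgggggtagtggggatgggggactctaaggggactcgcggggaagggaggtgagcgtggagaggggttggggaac
Notch1: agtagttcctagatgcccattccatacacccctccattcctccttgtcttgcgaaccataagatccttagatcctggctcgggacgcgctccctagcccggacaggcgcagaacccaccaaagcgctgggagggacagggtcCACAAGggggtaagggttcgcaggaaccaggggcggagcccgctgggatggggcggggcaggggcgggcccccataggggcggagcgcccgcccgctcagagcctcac

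The first Hes6 window held 1 E box and 1 N box, the second 3 E boxes, and the Notch1 window 1 N box and 0 E boxes. Promoter windows were found by symbol for 8 of the 10 genes (10 windows, all but Hes1 and Hey1). Of these, 6 held an E box, 4 an N box and 0 the RBPJ core TGGGAA on either strand, and no match to one motif overlapped a match to another. Among 32851 mouse promoter windows of the same length, 66.2% held the E box, 36.7% the N box and 21.6% the RBPJ core. These are matches of letters and say nothing on whether a factor binds there.

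Beyond the members, 93 further genes of the pathway were listed by role, of which 85 were analysed here and 66 had a value. Among the 66, 2 were at least 2-fold higher (3.03%, against 2.10% of all genes) and 2 at least 2-fold lower (3.03%, against 2.44%). Without the suffixed probe sets these counts were 0 and 1, and with only the brightest probe set per gene, the 2 lower ones were Tle6 and Pofut1 in place of Tle6 and Mfap2. At 1.5-fold, 4 were higher (6.06%, against 8.83%) and 12 lower (18.2%, against 9.10%). These counts depended on the processing. With the pseudocount, Lfng (-0.52), Gxylt1 (-0.58), Neurl1b (-0.53), Numbl (-0.57) and Kat2b (-0.44) of the lower genes fell short of 1.5-fold. Of the higher genes, Dll4 did (0.35). The share of all genes at 1.5-fold was not computed with the pseudocount. In all, 41 of the 66 had a ratio below 0 (62.1%, against 48.2% of all genes), and their median was -0.11.

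Enzymes that mature and glycosylate the receptors had a median of -0.49, and 4 of 8 were at least 1.5-fold lower. Pofut1, which adds O-fucose to Notch, had a ratio of -0.91, and its probe sets past the filter read 392.8 and 154.4 on 1443881_at and 151.5 and 108.5 on 1456323_at. By the former, its brightest, Pofut1 was past 2-fold lower (-1.35). With no filter a dimmer probe set entered, and the Pofut1 ratio was -0.66. Furin, the protease that cleaves the receptor precursor, read 1277 and 742.5 (-0.78). Lfng, a Fringe enzyme that extends O-fucose and alters the choice of ligand, read 258 and 156.5 (-0.72), and the xylosyltransferase Gxylt1 1254 and 812 (-0.63). A dim Lfng probe set read 2.6 and 2.9, and with no filter the Lfng ratio was -0.36, short of 1.5-fold. With the pseudocount, Lfng (-0.52) and Gxylt1 (-0.58) also fell short of 1.5-fold. The other Fringe genes, Mfng and Rfng, had ratios of 0.23 and 0.30, so the Fringe genes did not share a direction.

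Genes for cutting the receptor differed both ways. Psen2, a catalytic subunit of gamma-secretase, read 95.6 and 298.7 on 1425869_a_at (log2 ratio 1.64) and had a dim probe set at 7.9 and 57.5. Both were higher with the Tmem132a siRNA. Aph1b, another subunit, had a ratio of -0.73 over 2 probe sets, while the sheddases Adam10 and Adam17 lay at -0.01 and -0.24. In the group of 14 genes for ligand endocytosis and receptor turnover, the median was -0.04. Mib2, an E3 ligase for Notch ligands, read 402.5 and 806.6 on 1424862_s_at (200.4% of the control level), whereas Neurl1b, also a ligand E3 ligase, and the Numb-like adaptor Numbl lay at -0.72 and -0.77.

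In the nucleus, Rbpj, the DNA-binding partner of the receptor, had 3 probe sets that were all slightly lower, from -0.30 to -0.17, with a gene ratio of -0.25. Of the 6 genes of the nuclear complex with a value, 5 were below 0 (83.3%, against 48.2% of all genes). Of these, Maml1 (-0.04) and Kat2a (-0.002) were nearly level. Kat2b, a histone acetyltransferase, had -0.65, but by its brightest probe set, with 2729.4 and 2209.4, it had -0.30. Co-repressors had a median of -0.02 over 12 genes. Tle6, a divergent member of the Groucho family, had the lowest ratio of the 66 genes, with 351.1 and 87.8 on its single probe set. Tle5, a short Groucho protein, read 773.1 and 429.4 (-0.85), and the deacetylase gene Hdac1 1921.7 and 3150.9 (0.71).

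Of the remaining ligands and receptors, 3 of 8 had a value. Mfap2, a microfibril protein that can bind Notch ligands, read 587 and 337.6 on 1417359_at (-0.80) and 142.1 and 44.1 on 1447833_x_at (-1.69), which gave a gene ratio of -1.24. The latter probe set carries a suffix and was below the filter level on the Tmem132a siRNA array, and by the brighter one alone Mfap2 was not past 2-fold. Dll4, the Delta ligand best known from blood vessels, lay just above the filter with 60.4 and 98.6 (0.71). Its control signal was below the filter level, so it passed only through its higher Tmem132a siRNA signal. It is among the 4 pathway genes at least 1.5-fold higher, and with a pseudocount its ratio was 0.35. Further Hes and Hey genes gave 2 values, -0.26 for Hey2 and 0.15 for Heyl. With no filter, dim probe sets turned the Heyl ratio to -0.53. Hes5, another Notch target in neural progenitors, was below the filter, and its probe sets differed in direction, with 45.9 and 93.4 on 1423146_at and 104.9 and 25.5 on 1456010_x_at. Among other target and feedback genes, 0 of 6 reached 1.5-fold, with Myc at 0.31 and Bhlhe40 at -0.50.

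Partners and antagonists of proneural factors had a median of -0.21, with 6 of 8 genes below 0, against 48.2% of all genes. Among the 6, Id4 (-0.09), Tcf12 (-0.14) and Tcf3 (-0.28) each had probe sets past the filter on both sides of 0. Those of Tcf4, Id2 and Id3 were all below 0. Id3, an inhibitor of basic helix-loop-helix factors, read 3405.5 and 2067.2 (-0.72). Id1 of the same family was higher, with 2109.2 and 2566.2 (0.28), so the Id genes did not share a direction. The E protein gene Tcf4 had a ratio of -0.47, with its 5 probe sets past the filter all below 0. Most proneural genes themselves, among them Neurog1, Neurog2, Atoh1 and Neurod1, did not pass the filter.

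**Figure D3:**
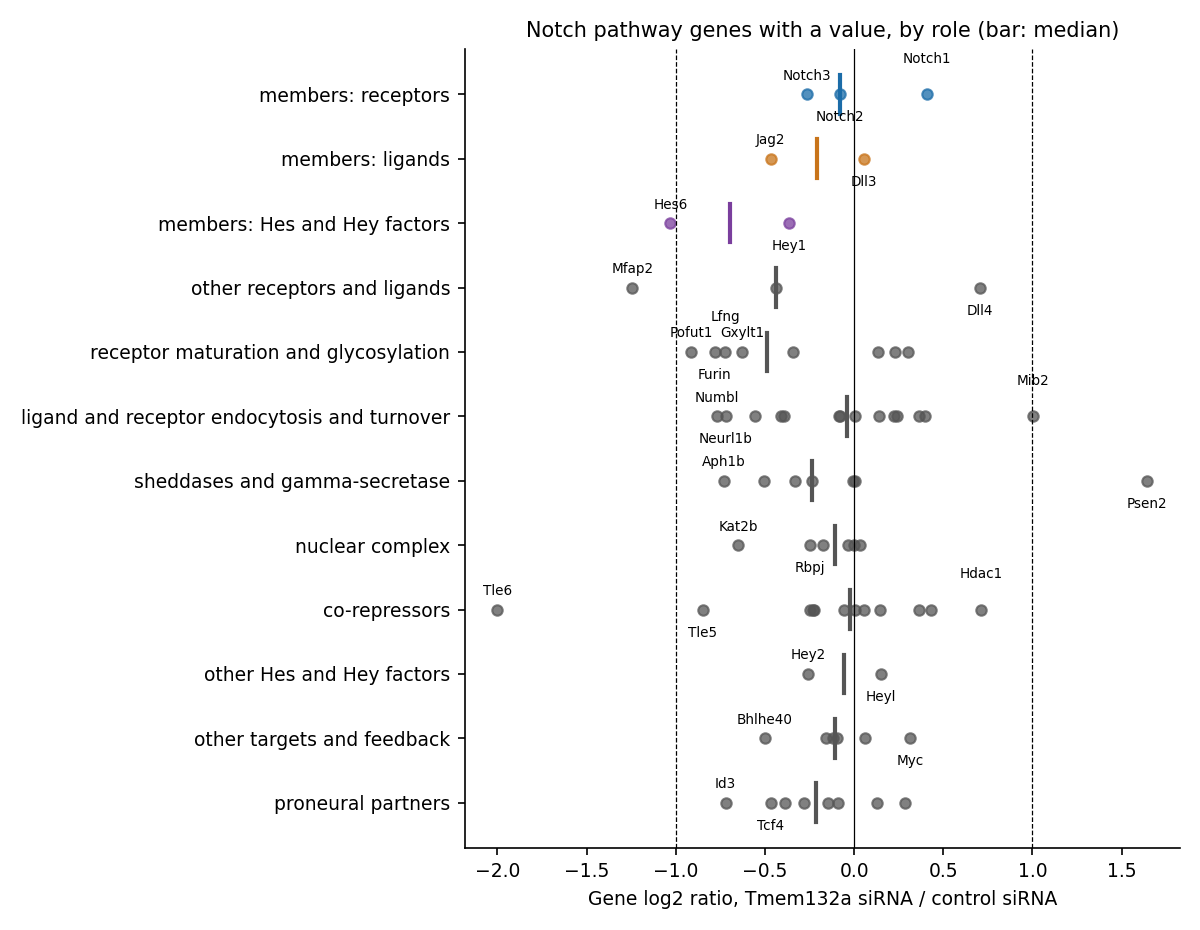
Gene log2 ratios, Tmem132a siRNA over control siRNA, of the 7 members (coloured) and 66 other pathway genes (grey) with a value, by role; each point is 1 gene, the bar is the median of the group and dashed lines mark 2-fold. Hes6, Mfap2 and Tle6 lie at or beyond 2-fold lower, and Psen2 and Mib2 at or beyond 2-fold higher.

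**Figure D4:**
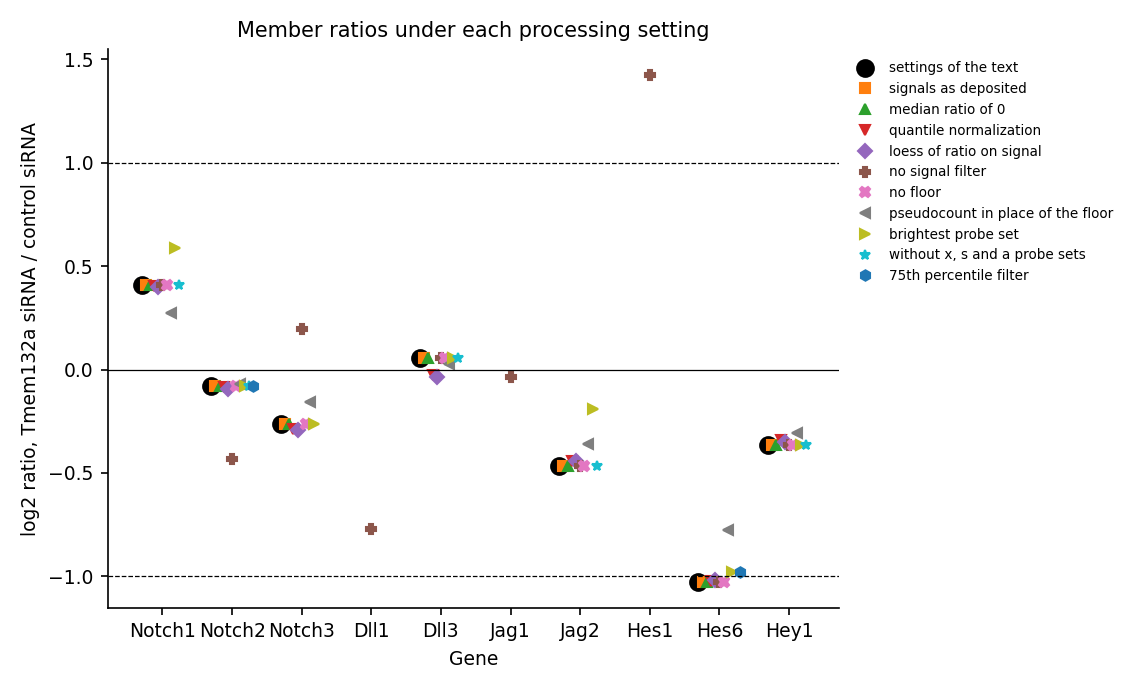
Log2 ratio of each member gene under the settings of the text (black circles) and 10 alternatives, with dashed lines at 2-fold. Hes6 stays below 0 wherever it has a value, from -1.03 to -0.78, and Dll1, Jag1 and Hes1 have a value with no signal filter only.

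The members' directions can be read across settings. Notch1 was above 0 in all 10 settings that gave it a value, from 0.27 to 0.59. Jag2 was below 0 in all of its 10, from -0.47 to -0.19, as was Hey1, from -0.37 to -0.31. Hes6 was below 0 in 10 of 10 and past 2-fold in 7 of them. The settings share signals and probe sets, so these counts are not of separate checks. With no filter, with no floor and with a median ratio of 0, the Hes6 ratio stayed at -1.03. It fell short of 2-fold with the higher filter and by the brightest probe set (both -0.98), and with the pseudocount (-0.78). Notch3 and Dll3 were on either side of 0, with the filter turning the sign of Notch3 and the scaling that of Dll3.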

How the data were processed

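Total RNA of 2 cultures was hybridised to 1 array each. The deposited values are linear signal intensity per probe set from MAS5, per the submitters' processing notes and the series text, with no version given. Both columns had a 2% trimmed mean of 500.003 and were set to their common value. Detection calls were not used here.

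Computation used Python 3.11.15 with pandas 2.3.3, numpy 2.4.6, statsmodels 0.14.6 and scipy 1.17.1, and matplotlib 3.10.9 drew the plots. Of 45101 probe sets, 64 controls were left out. GEO's platform annotation gave 1 symbol for 34945 probe sets, several for 932 and none for 9160, and the last 2 kinds gave no gene value. Probe sets with a mean signal at or above the median (77.25) were kept, signals under the 20th percentile (14.5) were set to it, and log2 ratios were averaged per gene. Since the annotation names no genome build, only promoter coordinates are given. The number of arrays limits the precision. The steps were tested on simulated data with planted differences larger than that of any member with a value. Variation between cultures was not simulated, so the simulation says nothing on the precision of the member ratios.

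The members and lists were chosen with earlier results of these data known. Named were all members, Tmem132a, and of each other list the genes past 1.5-fold (at least the 2 with the largest ratios); other list genes were named as examples after their values were seen. Alternatives changed the scaling, filter, floor and choice of probe sets.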

Additional observations from a re-analysis of the deposited data

How the results depend on the processing

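The alternatives were signals as deposited, a median ratio of 0 over all probe sets (which it already was, so that nothing moved), quantile normalization, loess with a span of 0.3, no filter, a 75th percentile filter (462.8), no floor, a pseudocount (78.95) instead of the floor, only the brightest probe set per gene, and no probe sets with an x, s or a suffix. No paired analysis was possible because each group had 1 array. With the other scalings and with no floor, the counts of members and of other pathway genes past 2-fold were the same as in the text. The count of members at least 2-fold lower was 0 with the 75th percentile filter (2 members left), the pseudocount, the brightest probe set, and without the suffixed probe sets (5 left). That of members at least 2-fold higher was 1, Hes1, with no filter. The members' median was -0.53 with the 75th percentile filter and -0.077 without the suffixed probe sets. Of other pathway genes, 4 of 85 were at least 2-fold lower with no filter, 0 of 47 with the 75th percentile filter, and 1 each with the pseudocount and without the suffixed probe sets. At least 2-fold higher were 1 each with the 75th percentile filter and the pseudocount, and 0 without the suffixed probe sets. Their median was -0.16 by the brightest probe set and -0.17 without the suffixed probe sets. Mfap2 lost the 2-fold size with the pseudocount (-0.76), by its brightest probe set and without the suffixed probe sets (both -0.80), and Mib2 with the pseudocount (0.88). Pofut1 gained it by its brightest probe set (-1.35), where the count of lower genes was again 2. Tle6 kept it in each of the 9 alternatives that gave it a value, with -1.37 under the pseudocount, and Psen2 in each of 8, with 1.11. Over all genes, 224 were higher and 261 lower in the text, 1312 and 881 with no filter, 44 and 90 with the 75th percentile filter, and 49 and 79 with the pseudocount. The causes of these moves were not tested beyond the numbers of genes left.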
